A study of Caenorhabditis elegans with 4 samples.

Results

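The 674 ELT-3 binding regions on chromosome III of Caenorhabditis elegans embryos are described here. They are all peaks of the deposited combined list whose chromosome is III, 674 of 3936 in all, or 17.1%. Each peak was taken for its chromosome alone and for no measured value, though this part was set with earlier results of these data known. The assay was chromatin immunoprecipitation with sequencing (ChIP-seq), with 2 ChIP and 2 input samples from embryos of strain OP75, grown at 20 °C and holding both males and hermaphrodites. All 4 samples share the genotype unc-119 (ed3) III with the transgene wgIs75, which carries elt-3 fused to TY1, EGFP and FLAG tags together with a working unc-119 copy. There was no untreated or wild-type strain, so each ChIP was set against input DNA from the same strain. The transgene was made by bombardment, is present in addition to the strain's own elt-3, and a goat antibody to GFP was used to pull down its protein. The strain's unc-119 mutation lies on chromosome III too, but the position of that gene on the build of the files was not used here, so no value is given for it.

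ELT-3 belongs to the GATA family of transcription factors, which hold DNA with zinc fingers, and it is found in the worm's skin (the epidermis, or hypodermis). GATA factors are named for the short DNA word they bind. In the embryo, the related factor ELT-1 sets the epidermal fate, and ELT-3 acts below it in the epidermal cells that do not become seam cells. The epidermis builds the collagen cuticle and covers the animal. Whole embryos were used, so a peak does not say in which cells the factor was bound. The peaks are given by position only, on WormBase build WS180, because the annotation supplied for names (WBcel235) is of another build. No gene is assigned to any peak and no sequence is printed for the same reason.

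For each peak the authors gave one number, named qValue. On III, 100% of the values were matched by a binomial tail at probability 0.5 for 1 pair, and no other, of ChIP tags and scaled control tags. The tag numbers below were derived in this way. The tag ratio is ChIP tags divided by scaled control tags in a peak. Its 95% interval is the exact binomial (Clopper-Pearson) one and covers counting error only, with the scaled control taken as if counted. Library totals are unknown. The labels do not say that the 2 ChIP samples came from separate cultures, and the combined list repeats much of the replicate 2 list. The lists are therefore given side by side and not averaged.

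The peaks on III covered 192916 bp, 1.40% of the stretch up to the last peak end at 13747946. They began at 15238. The replicate 1 list held 293 peaks on III over 89310 bp, and the replicate 2 list held 677 over 197196 bp. Together the combined peaks held 52242 ChIP tags against 17664 control tags, a summed ratio of 2.96. The median peak was 252.5 bp wide, with the middle of the distribution between 187 and 349 bp (quartiles), and held 65 ChIP tags against 22 control tags. ChIP tags ran between 24 and 479, and 169 peaks had under 50 while 136 had 100 or more. The median tag ratio was 3.00 with quartiles of 2.59 and 3.75. A ratio of 5 or more was reached by 53 peaks, and 9 lay under 2. Wider peaks held more tags of both kinds. Across the 674 peaks the Spearman correlation of width was 0.96 with ChIP tags, 0.89 with control tags and -0.30 with the ratio, as a description, since these peaks come from the same libraries and width, tags and calling are tied.

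**Figure D1:**
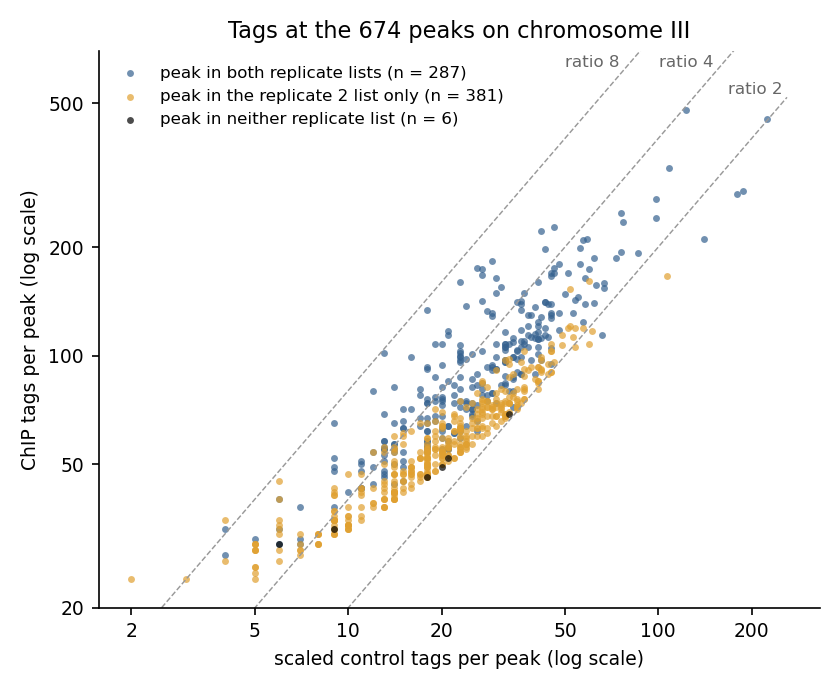
ChIP tags (vertical) against scaled control tags (horizontal) at each of the 674 peaks on III in the combined list, both on log scales. Points are single peaks, coloured by the replicate lists that hold an overlapping peak, and dashed lines mark tag ratios of 2, 4 and 8. Peaks found in both lists reach the most ChIP tags, up to 479, while those found in replicate 2 only stop at 166.

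Peaks were denser on III than on the other 4 chromosomes compared. III had 49.0 peaks per Mb, against 36.1 per Mb on II, IV, V and X together. The density ratio was 1.36 (95% interval 1.16 to 1.59; quasi-Poisson regression over 1 Mb bins, n = 14 on III and n = 73 on the others, two-sided, adjusted p = 0.00109 over 5 measures). By chromosome, II had 42.6, X 37.8, IV 35.4 and V 30.6 peaks per Mb. III exceeded V (n = 21 bins) by a ratio of 1.60 (1.28 to 2.01, quasi-Poisson regression, adjusted p = 0.00353 over 20 comparisons). It exceeded IV (n = 18) by 1.39 (1.13 to 1.70, adjusted p = 0.0152) and X (n = 18) by 1.30 (1.10 to 1.54, adjusted p = 0.0152). Against II (n = 16) the ratio was 1.15 (0.946 to 1.40, adjusted p = 0.256), which did not pass the threshold of 0.05 and leaves room for a difference of either sign. In the replicate 1 list III had 21.3 peaks per Mb, against 15.7 on the other 4, a ratio of 1.36 (1.12 to 1.65, n = 14 and n = 73 bins, adjusted p = 0.00768). In that list the ratio to X was 1.27 (n = 14 and n = 18 bins, adjusted p = 0.0678), so that single comparison was lost. Bins of one chromosome are not replicate samples, so these p-values measure the spread between bins of one list. Gene density and how well reads map along the chromosomes were not tested.

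Along III the number of peaks per 1 Mb bin ran between 26 and 71. The fullest bin was that between 8 and 9 Mb with 71 peaks, followed by 4 to 5 Mb with 69 and 7 to 8 Mb with 60. The emptiest was 2 to 3 Mb with 26. The fullest whole bins on the other chromosomes held 57 peaks on II, 54 on X, 51 on IV and 51 on V, so 4 bins of III, including 5 to 6 Mb with 58, held more than any whole bin there. In 3 equal parts of the extent, III had 42.3 peaks per Mb in the left part, 57.2 in the central part and 47.6 in the right part. In replicate 1 these parts had 22.0, 22.3 and 19.6 peaks per Mb, without the central rise. The share found in both replicates differed accordingly. It was 51.0% in the left part (99 of 194, Wilson interval 44.0 to 58.0), 37.8% in the central part (99 of 262, 32.1 to 43.8) and 40.8% in the right part (89 of 218, 34.5 to 47.5). The difference between parts was not tested. Median control tags per kb were 88.3, 101.0 and 90.5 in these parts, highest in the central part, where the share was lowest. Their part in the result was not tested.

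**Figure D2:**
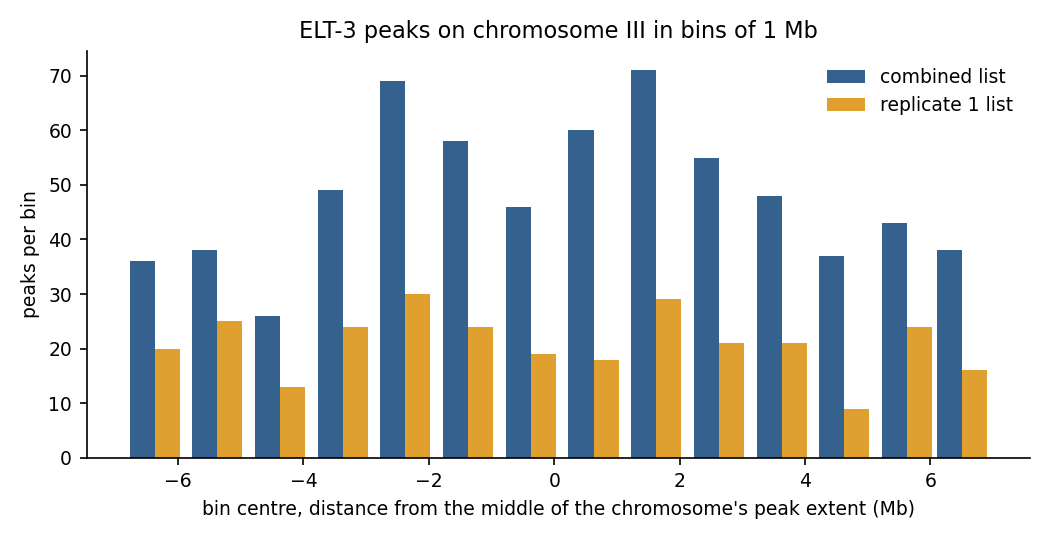
Peaks per 1 Mb bin along chromosome III, plotted by the distance of the bin's centre from the middle of the peak extent. Bars are counts in the combined and replicate 1 lists, and the last bin on the right is shorter. The combined counts reach 69 and 71 on either side of the middle, while those of replicate 1 stay between 9 and 30.

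Single bins also differed in the share found in both replicates. Between 1 and 2 Mb, 24 of 38 combined peaks were found in both replicates (63.2%). Between 11 and 12 Mb only 9 of 37 were (24.3%), and replicate 1 had just 9 peaks there. The bin from 12 to 13 Mb beside it had 24 of 43 (55.8%). Median tag ratios of the bins lay between 2.68, at 3 to 4 Mb, and 3.80, at 2 to 3 Mb. The bin with the fewest peaks thus had the highest median ratio, and also the fewest control tags per kb, with a median of 69.6. The ratio is divided by the control tags, so these values are tied.

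The 20 first-ranked peaks on III by probability that were found in both replicates ranked 12th to 116th in the whole combined list. All of the first 20 on III were found in both. They held 4137 ChIP tags, 7.92% of those on III, and were 344 to 2155 bp wide. A peak with many tags gets a small probability even at a modest ratio, so this is no order of binding strength. Of the 20 positions, 5 lay in the left part, 7 in the central part and 8 in the right part. Their ratios ran between 2.78 and 7.44 with a median of 5.13, and 10 exceeded 5.

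First on III was the peak at III 5106882 to 5109036, 2155 bp wide, with 479 ChIP tags against 123 control tags. Its ratio was 3.89 (3.19 to 4.79) in the combined list. In replicate 1 the peak of largest overlap ended at 5107853, was 987 bp wide and had 177 ChIP tags against 40, a ratio of 4.43 (3.12 to 6.40). The intervals of the ratios overlap, and that replicate 1 peak covers less than the combined one. Only the replicate 1 peak of largest overlap was paired, so any other one inside the combined peak is not shown. The combined peak was the widest on III.

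In the left part, the peak at III 3867328 to 3867712 had 183 ChIP tags against 29 and a ratio of 6.31 (4.25 to 9.69), with 6.19 (3.63 to 11.2) in replicate 1. The first peak of the chromosome, at III 15238 to 15602, had 175 tags against 26. Its ratio was 6.73 (4.44 to 10.6), and 6.59 (3.94 to 11.7) in replicate 1. Both are wider than the median III peak, and their ratios lie above the upper quartile of III. The much wider peak, of 1332 bp, at III 834951 to 836282 had a ratio of 3.07 (2.47 to 3.86) from 332 tags against 108, and 3.10 (2.36 to 4.12) in replicate 1. The peak at III 3339613 to 3340011 had 6.44 (4.28 to 10.1), and 6.24 (3.72 to 11.1) in replicate 1. The peak at III 1682292 to 1682638 had the highest ratio of the 20, 7.44 (4.53 to 12.9) from 134 tags against 18, and 7.0 (3.70 to 14.6) in replicate 1.

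In the central part, the peak at III 7854424 to 7854782 had a ratio of 6.96 (4.48 to 11.3) from 160 tags against 23, and 6.69 (3.72 to 13.1) in replicate 1. At III 8986768 to 8987130 the ratio was 6.19 (4.10 to 9.67), and 5.06 (3.03 to 8.91) in replicate 1. This peak belongs to the group of 4 peaks described below. The peaks at III 8795443 to 8796119 and III 8801591 to 8802282 lie about 6 kb apart and had lower ratios, 3.58 (2.67 to 4.86) and 3.26 (2.51 to 4.28). In replicate 1 they had 3.41 (2.40 to 4.96) and 3.02 (2.20 to 4.20). The peak at III 8446909 to 8447252 had 5.71 (3.68 to 9.21), and 5.67 (3.25 to 10.6) in replicate 1. The lowest ratio of the 20 was that of the 1080 bp peak at III 8416888 to 8417967, 2.78 (2.20 to 3.53), and 2.41 (1.77 to 3.34) in replicate 1.

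In the right part, the peak at III 10989327 to 10989991 ranked 2nd on III, with 221 tags against 42 and a ratio of 5.26 (3.77 to 7.50). In replicate 1 it had 111 against 26, a ratio of 4.27 (2.77 to 6.82). The peak at III 12612252 to 12612789 ranked 3rd with 228 tags against 46, a ratio of 4.96 (3.60 to 6.96), and 4.70 (3.15 to 7.22) in replicate 1. These peaks had the most ChIP tags of the right part among the 20. The other 6 positions of the right part had ratios between 3.67 and 5.47. The highest of them was at III 10758940 to 10759348, and the lowest, 3.67 (2.72 to 5.01), at III 12549385 to 12549946. In replicate 1 that peak had 3.14 (2.15 to 4.67).

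At all 20 positions the intervals of the replicate 1 ratio and the combined ratio overlapped. Replicate 1 gave the higher ratio at 2 of them, and at 167 of all 287 peaks found in both. The 20 were picked by their combined probability and for an overlap in replicate 1, and the lists may share tags. All 287 likewise had to be listed in replicate 1. The counts in this paragraph are therefore no separate test of the 20 or of the 287. At 12 of the 20 the replicate 2 list held the same ChIP and control tags as the combined list, so it adds no separate value there. Of the 20, 15 were also among the first 20 of the replicate 1 list on III.

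Other peaks stood out by ratio, width or control. Among peaks with 50 or more ChIP tags, the highest ratio on III was at III 4170989 to 4171270, with 102 tags against 13, or 7.85 (4.39 to 15.2), and 7.25 (3.45 to 17.6) in replicate 1. The peak at III 1424375 to 1424622 had 7.22 (3.58 to 16.5) from 65 tags against 9. In replicate 1 it had 7.75 (2.74 to 30.2). With so few control tags the intervals are wide, and the order of these ratios is not fixed by the data. The third widest peak, at III 10094311 to 10095578, spanned 1268 bp with a ratio of 2.55 (1.95 to 3.37). The replicate 1 peak paired with it was 200 bp wide and lay inside it, with 39 tags against 10 and a ratio of 3.90 (1.91 to 8.76). In all, 8 peaks on III exceeded 1000 bp and 3 of these had no neighbouring midpoint within 2 kb.

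The 4 peaks with the most control tags among those found in both replicates behaved alike, and were chosen for naming after their values were seen, except that the first 3 below are also those of 200 bp or more with the most control tags per kb. Each had a higher ratio in replicate 1 than in the combined list. At III 931225 to 931869 replicate 1 had 259 ChIP tags against 124, a ratio of 2.09 (1.68 to 2.61), and the combined list 286 against 187, a ratio of 1.53 (1.27 to 1.85). At III 10224455 to 10225338 the ratio was 1.93 (1.54 to 2.43) in replicate 1 and 1.56 (1.29 to 1.89) in the combined list. The peak at III 7446774 to 7447880 had 365 tags against 148 in replicate 1, a ratio of 2.47 (2.03 to 3.01), and 453 against 224 in the combined list, a ratio of 2.02 (1.72 to 2.38). At III 1299605 to 1300477, the same interval in both lists, replicate 1 had 198 tags against 93, a ratio of 2.13 (1.66 to 2.75), and the combined list 210 against 140, a ratio of 1.50 (1.21 to 1.87). That was the lowest ratio on III. The intervals of the 2 lists overlap at all 4 peaks. In this order the peaks had 289.9, 204, 202 and 160.4 control tags per kb in the combined list, against a median of 93.9 over all III peaks. Over all 287 peaks found in both, replicate 1 gave the higher ratio at 167, by a median factor of 1.03, and control tags per kb did not go with that factor (Spearman correlation -0.01, as a description). The 287 are only peaks that replicate 1 listed as well, so a low replicate 1 ratio could keep a peak out. The count of 167 is therefore no test of a direction. In 4 groups of these peaks by control tags per kb, low to high, the median factor was 1.05, 1.01, 1.02 and 1.03.

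**Figure D3:**
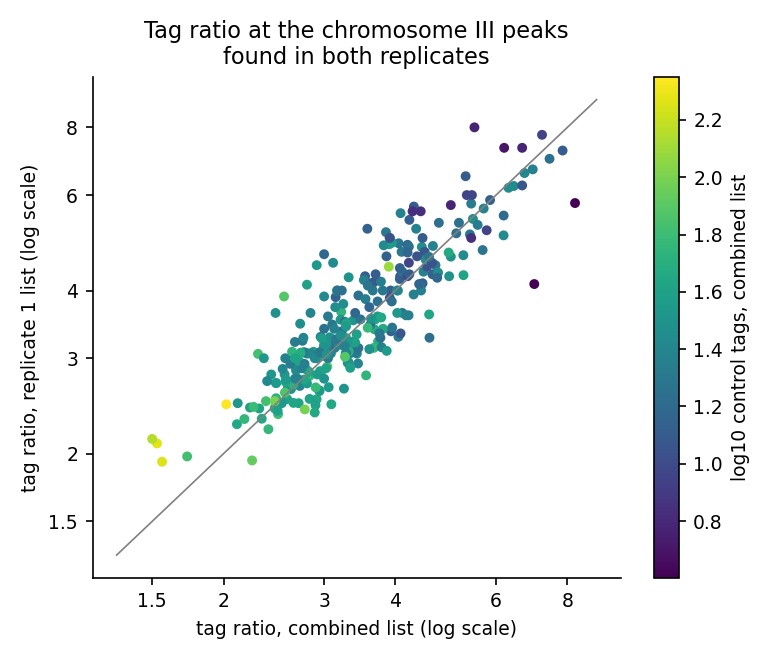
Tag ratio in the replicate 1 list (vertical) against the combined list (horizontal), both on log scales, at the 287 peaks on III found in both replicates. Points are coloured by the log10 of the control tags in the combined list, and the line marks equal ratios. The 4 brightest points at the lower left, with ratios between 1.50 and 2.02 in the combined list, lie above the line.

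At the other end, 34 peaks on III spanned under 50 bp, or 5.04% (Wilson interval 3.63 to 6.97), against 126 of 2574 on II, IV, V and X, or 4.90% (4.13 to 5.80). The intervals overlap. The narrow III peaks had a median of 30 ChIP tags against 6 control tags and a median ratio of 4.69. The highest ratio on III, 12, was that of a 1 bp peak at III 11255198 with 24 tags against 2. It was absent from replicate 1, as were 30 of the 34. The 640 wider peaks had a median ratio of 2.97. A ratio from a few control tags is poorly fixed, and a narrow peak offers little length to overlap.

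Neighbouring peaks on III were often close. From one peak midpoint to the next, the median distance was 11059 bp on III, against 11524 bp on II, 16533 bp on X, 17355 bp on IV and 17995 bp on V. A neighbour within 2 kb was found for 187 of the 674 peaks on III (27.7%, Wilson 24.5 to 31.2), against 569 of 2574 on II, IV, V and X (22.1%, 20.5 to 23.7). The odds ratio over bins was 1.35 (0.988 to 1.85, quasi-binomial regression, adjusted p = 0.0742) and did not pass the threshold. Against V alone, with 17.5%, it was 1.81 (1.16 to 2.83, quasi-binomial, adjusted p = 0.0363). This call was lost with limits of 1 or 5 kb, with the better-scoring 50% of the list, where the odds ratio was 1.55 (quasi-binomial, adjusted p = 0.437), and in the replicate 1 list, where the odds ratio was 2.10 (quasi-binomial, adjusted p = 0.117). Against II, with 29.1%, it was 0.937 (0.634 to 1.38, quasi-binomial, adjusted p = 0.863). A denser chromosome has closer neighbours, and the fit does not separate spacing from density.

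The 187 close peaks formed 85 groups, 69 of 2 peaks and 16 of 3 or more. The only group of 4 lay at III 8982193 to 8987130, with 2 of its peaks found in both replicates and the peak ranked 9th on III at its right end. All 3 peaks were found in both replicates in the groups at III 1923455 to 1926748, with a summed ratio of 3.62, and III 12847528 to 12851410, with 3.27. None of 3 was found in both at III 1286500 to 1289441, III 7728417 to 7730868, III 9454559 to 9457666 and III 12554710 to 12558347, whose summed ratios lay between 2.26 and 2.84. Close peaks were a little wider than solitary ones, with medians of 290.0 and 234 bp, and their median ratios were 2.95 and 3.03. They were found in both replicates in 46.5% of cases (39.5 to 53.7), and the 487 solitary ones in 41.1% (36.8 to 45.5).

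Windows of 20 kb held at most 8 peaks on III, at 3 places. The window at III 3862907 to 3879666 included the peak ranked 4th on III, and 4 of its 8 peaks were found in both replicates, with a summed ratio of 3.35. The window at III 8794693 to 8812530 held the pair of peaks about 6 kb apart named above and a 1038 bp peak between them. Again 4 of 8 were found in both. Its 8 peaks held 1091 ChIP tags, the most of the 3 places. At III 4492122 to 4508593 only 2 of 8 were found in both, no peak ranked better than 860th in the whole list, and the summed ratio was 2.55. A dense window thus did not always hold one of the 20 first-ranked peaks.

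The longest stretch without peaks was shorter on III than on each of the other 4 chromosomes. The longest gap between midpoints on III was 151357 bp, between III 2224771 and 2375935, against 230018 bp on II, 235334 bp on IV, 341967 bp on X and 380830 bp on V. Next came the stretches between III 9126061 and 9269012 and between III 1682638 and 1824621. The peak of highest ratio among the 20 lies at the left edge of that last stretch. Gaps over 100 kb numbered 11. Replicate 1 had no peak inside the 10 longest, and replicate 2 had 2, both in the stretch that begins at 9126061.

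The replicate lists were then compared on III. Of the 293 replicate 1 peaks, 290 overlapped a replicate 2 peak by at least 1 bp (99.0%, Wilson 97.0 to 99.7). In the other direction 288 of 677 replicate 2 peaks overlapped one of replicate 1 (42.5%, 38.9 to 46.3). With both lists on III cut to 293 peaks, the shares were 79.2% and 78.5%. The lists may share tags, so this is not given as agreement of separate samples. The 3 replicate 1 peaks with no partner were at III 8490373 to 8490458, with 30 tags against 4, at III 1214649 to 1214681, with 20 against 2, and at III 8921888 to 8922250, with 60 against 25. They ranked 685th or lower in replicate 1 and none was in the combined list.

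Of the 674 combined peaks, 287 (42.6%, Wilson 38.9 to 46.3) were found in both replicates, 381 in replicate 2 only and 6 in neither. Peaks found in both had a median of 92 ChIP tags, a width of 336 bp and a ratio of 3.29. Those in replicate 2 only had 55 tags, 205 bp and 2.81. The best-ranked peak missing from replicate 1 was 348th in the whole combined list. When the III peaks were put in 5 groups by rank, 98.5% (94.7 to 99.6) of the first group had a replicate 1 partner, and then 63.7%, 37.8%, 9.63% and 3.70%. At matched intervals replicate 1 held fewer tags (below), and the part of depth in this share was not tested. On II, IV, V and X together 41.6% (39.8 to 43.6) were found in both. The odds ratio of III to these was 1.04 (0.860 to 1.26, quasi-binomial regression over bins, adjusted p = 0.688) and did not pass the threshold. Its interval leaves room for a difference of either sign.

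**Figure D4:**
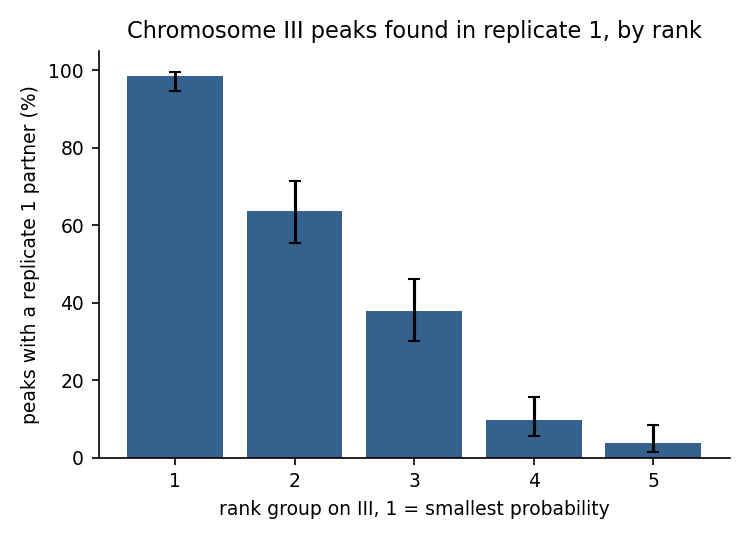
Share of the combined peaks on III that overlap a replicate 1 peak (vertical, percent), in 5 groups of 134 or 135 peaks by rank of probability on III (horizontal). Error bars are 95% Wilson intervals. The share is 98.5% in the first group and 3.70% in the last.

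Where intervals matched, the lists could be set against each other tag by tag. At 84 pairs on III with both ends within 25 bp, the replicate 1 list had a median of 0.690 times the ChIP tags of replicate 2 (quartiles 0.641 and 0.741) and 0.658 times its control tags (0.641 and 0.667). The control numbers of the lists were thus nearly proportional, with a Spearman correlation of 0.99, and those of ChIP tags correlated at 0.96. Both correlations share peak width, and the pairs were chosen for matching intervals. Whether the lists were scored against the same control tags at different scales was not tested. The replicate 1 ratios given throughout are therefore not taken as separate measurements. The tag ratio was higher in replicate 1 at 56 of the 84 pairs, by a median factor of 1.05. Each pair needed a listed peak in replicate 1, which a low ratio there could prevent, so this count is no test of a direction. At these pairs the factor had a Spearman correlation of 0.22 with control tags per kb in replicate 2, as a description. Over all 287 peaks found in both, set against the combined list, that correlation was -0.01. The combined list shared 505 of its 674 intervals on III (74.9%) with replicate 2 to the base, all 505 with the same probability. The other 163 that overlapped a replicate 2 peak were all narrower than it, by a median of 9 bp.

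The tag ratio of peaks was slightly higher on III. Summed over peaks, the ratio was 2.96 on III, against 2.82 on II, IV, V and X together, a factor of 1.05 (1.0 to 1.10, quasi-binomial regression over bins, adjusted p = 0.0495). Against X, with 2.70, the factor was 1.10 (1.03 to 1.16, quasi-binomial, adjusted p = 0.0152). In the replicate 1 list it was 1.11 against X (quasi-binomial, adjusted p = 0.0896) and 1.06 against the 4 together (adjusted p = 0.193), so both calls were lost there. With the better-scoring 50% of the combined list the factor against X was 1.10 (1.003 to 1.20, quasi-binomial, adjusted p = 0.173), and that call was lost as well. Against II (2.85), IV (2.90) and V (2.88) the factors were 1.04, 1.02 and 1.03 (quasi-binomial regression, adjusted p from 0.226 to 0.542). Without X among the others the factor was 1.03 (0.992 to 1.07, quasi-binomial, adjusted p = 0.157), so the pooled call rested on X. Median control tags per kb were 93.9 on III, against 102.6 on X and 89.5 to 93.6 on II, IV and V. Their part in the result was not tested.

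Peaks on III were narrower. The geometric mean width was 0.902 times that on II, IV, V and X (0.822 to 0.989, linear model over n = 14 and n = 73 bins, adjusted p = 0.0495), with medians of 252.5 and 271 bp. Against X, with a median of 293 bp, the factor was 0.825 (0.728 to 0.935, n = 14 and n = 18 bins, adjusted p = 0.0152), and against the other single chromosomes it did not pass. Without X the pooled factor was 0.931 (0.849 to 1.02, n = 14 and n = 55 bins, adjusted p = 0.157). In the replicate 2 list the pooled factor was 0.941 and in the replicate 1 list 0.942, neither past the threshold (n = 14 and n = 73 bins, adjusted p = 0.189 and 0.260). In the replicate 1 list the median III peak was 273 bp wide, against 279.5 bp on the other 4. Against X the factor stayed past the threshold in both lists, at 0.826 in replicate 1 and 0.853 in replicate 2.

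**Figure D5:**
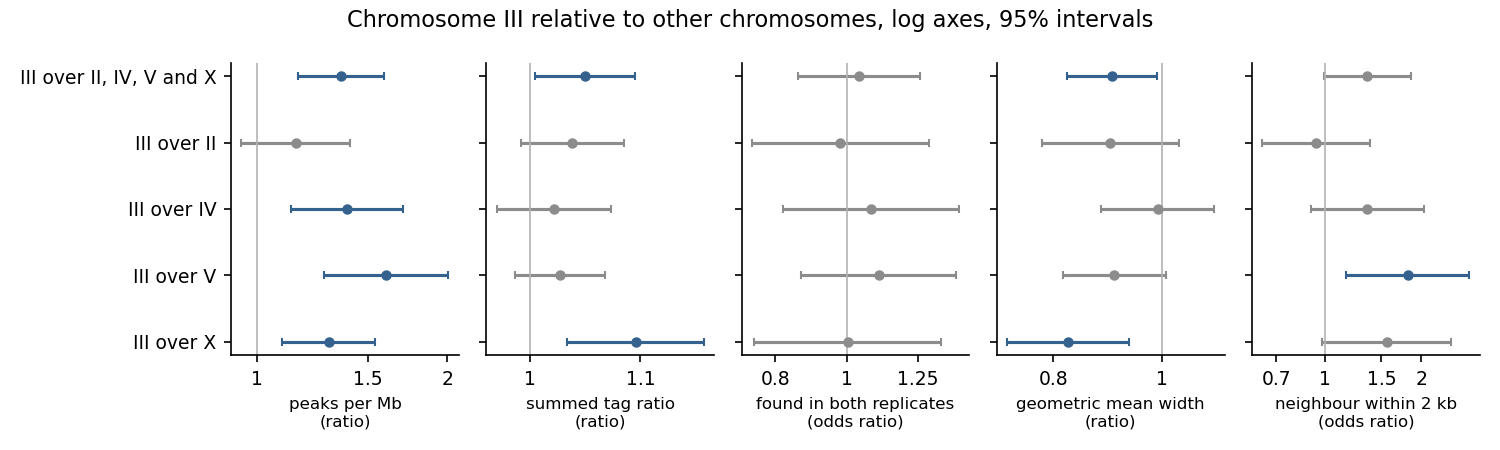
Chromosome III relative to II, IV, V and X together and to each alone, for 5 measures in the combined list over 1 Mb bins. Points are ratios or odds ratios on log axes with 95% intervals, blue where the adjusted p was under 0.05 and grey otherwise, and the vertical line marks no difference. The density ratio to the 4 together is 1.36, and the odds ratio of being found in both replicates, 1.04, spans 1.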

How the data were processed

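ChIP-seq was done on 2 ChIP samples, each with an input sample, taken by their titles. The description fields call the ChIP samples input DNA. Per the labels' protocols, embryos were crosslinked with 2% formaldehyde and 10% of each lysate was kept as input. Per the file headers, coordinates are on WormBase WS180. The source column names PeakSeq. For its settings, the aligner and the making of the combined list, nothing is given in the sources used here. The authors deposited 1 value per peak, named qValue, read here as an unadjusted p-value. Tags were looked up among binomial tails with totals up to 3000 and a relative tolerance of 1e-11, and the lookup and fits were tested on simulated data.

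Peaks of II, III, IV, V and X were used, and those of I only in the total count and in the ranks over a whole list. Chromosome extents ended at the highest peak end in any list. Each combined peak was paired with the 1 replicate peak of largest overlap in each list. The fits were over 1 Mb bins, with a dispersion estimated between bins and Benjamini-Hochberg adjustment over 5 pooled tests and over 20 tests against single chromosomes. Named positions were the 20 smallest probabilities found in both replicates, the 5 highest ratios with 50 or more ChIP tags, the 3 widest, the 3 with most control tags per kb among peaks of 200 bp or more, the fullest 20 kb windows, the 3 longest gaps and the extreme bins. The members, measures and rules were chosen with earlier results of these data known. Intervals of tag ratios and of shares are binomial and cover counting error only, while those of the fits include the spread between bins. Tags have no molecular identifiers, so repeated copies of a molecule are not accounted for. The fits used statsmodels 0.14.6, the tails scipy 1.17.1, the tables pandas 2.3.3 and numpy 2.4.6 and the figures matplotlib 3.10.9, under Python 3.11.15.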

Additional observations from a re-analysis of the deposited data

How the results depend on the processing

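The density ratio of III kept its direction and stayed past the threshold in all 6 alternatives, between 1.36 and 1.38. Without replicate 1 or 2, that is, with the list of the other replicate in place of the combined one, it was 1.36. The replicate 2 list holds 505 of the 674 combined intervals on III unchanged. The setting without replicate 1 is therefore no separate check of the density. Of the other settings for the 5 pooled measures, the tag ratio lost its call with the better-scoring 50% of the list (1.05) and without X (1.03), and width lost it there too (0.922 and 0.931). Without replicate 1 or 2, the tag ratio was 1.05 to 1.06, width 0.941 to 0.942 and the odds ratio of a neighbour within 2 kb 1.23 to 1.44. That odds ratio passed the threshold without replicate 1 (1.44), for peaks of 50 bp or more (1.41) and with 5 kb between midpoints (1.34), and not without replicate 2 (1.23). The odds ratio of being found in both replicates stayed between 1.0 and 1.08. The overlap of replicate 1 peaks with replicate 2 was 87.7% with a reciprocal overlap of 50%, 91.8% with midpoints within 100 bp and 79.2% with equal lengths, the last chosen after seeing the data. In the other direction it was 38.0% with the reciprocal overlap and 78.5% with equal lengths. Against single chromosomes, 8 of 108 values changed sign, none past the threshold: found in both over X, 0.896 (better-scoring 50%) and 0.979 (reciprocal), and over II, 1.04 (midpoints); neighbours over II, 1.17 (better-scoring 50%), 1.02 (5 kb) and 0.927 to 1.03 (without replicate 1 or 2); and without replicate 1 or 2, width over IV, 0.978 to 1.03, and over V, 0.958 to 1.0. The cause was not tested for any of these. No paired analysis was possible because each peak list gives ChIP and input as 1 value. Peaks of few tags, under 50 bp above all, have ratios with wide intervals, and the depth of each library is unknown.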
